A study of Mus musculus with 11 samples.

Results

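Spots rich in collagen transcripts were compared with spots rich in Gpnmb transcripts in mouse liver 48 h after an overdose of paracetamol (acetaminophen, APAP). A Visium spot is a patch of barcoded capture probes on a slide, 55 µm wide with 100 µm between centres, so it mixes the RNA of several cells of different types. Spots under the tissue mask with fewer than 800 genes detected, or with more than 20% of their UMIs (unique molecular identifiers, each 1 captured transcript) from mitochondrial genes, were left out. In each section, spots were ranked by Col1a1 plus Col3a1 UMIs per 10000 and, separately, by Gpnmb UMIs per 10000. A spot in the top 20% for collagen but not for Gpnmb was called a collagen spot, and a spot in the top 20% for Gpnmb but not for collagen a Gpnmb spot. This gave 518 spots of each class, 1036 of the 10006 passing spots at 48 h and of 25136 in the 11 sections of the series. Sections A, B, C and D held 232, 57, 125 and 104 spots of each class. The classes were chosen by the values of Col1a1, Col3a1 and Gpnmb, so these 3 genes are described for them without a test and were left out of all other counts.

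The 4 sections were frozen liver from the 48 h group of an injury time course that also has 3 uninjured sections, 2 at 24 h and 2 at 36 h, and only the 48 h and 36 h sections were used here. Per the study's methods the animals were male C57BL/6JCrl mice of 8 to 12 weeks, fasted before APAP was injected, with no transgene stated for these sections. The labels give the injured groups as POD with a time point, and no mouse, slide or run for any section. The methods give 1 mouse per time point for the spatial data, so n counts sections, p-values cover only the spread between sections, and mouse and time cannot be told apart.

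APAP overdose kills hepatocytes around the central vein. The dead zone is cleared by macrophages and, at the same time, activated hepatic stellate cells turn into myofibroblasts that lay down fibrillar collagen and pull on it with smooth-muscle-type actin. Col1a1 and Col3a1 encode chains of the fibrillar collagens I and III, made mainly by these mesenchymal cells. Gpnmb encodes a membrane glycoprotein of lysosome-rich cells and is a common marker of lipid-laden, scar-associated macrophages. In GRCm38 (GENCODE M21) Col1a1 lies at chr11:94936224-94953042, Col3a1 at chr1:45311538-45349706 and Gpnmb at chr6:49036546-49070929, all on the plus strand.

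Most spots that were high in one measure were high in both. Of the spots in the top 20% for collagen, 66.6%, 80.9%, 76.2% and 78.6% in sections A to D were also in the top 20% for Gpnmb, and by construction the same shares held the other way. These 1485 spots are called both-high, and the 7485 spots in neither top share are called neither. Across the spots of a section, which share a library and the per-spot denominator, Pearson's r between these measures was 0.61 to 0.76. The classes compared here are thus the minority of high spots in which 1 measure fell short of its limit.

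The limits were low in molecules, above all for Gpnmb. The lowest collagen value inside the top 20% was 4.19, 7.09, 13.3 and 12.1 UMIs per 10000 in sections A to D, and the highest outside it 4.19, 7.05, 13.3 and 12.1. For Gpnmb the lowest inside was 1.58, 1.84, 3.93 and 2.41 and the highest outside 1.57, 1.82, 3.91 and 2.40. The median Gpnmb spot held 3, 8, 11 and 7 Gpnmb UMIs and the median collagen spot 1, 3, 5 and 3. For collagen the medians were 10, 31, 37 and 40 UMIs in collagen spots and 2, 14, 18 and 18 in Gpnmb spots. Gpnmb was at 0 UMIs in 38.4% of the collagen spots of section A and in 5.26% to 7.20% of those of the other sections, so a collagen spot in sections B to D was usually short of Gpnmb rather than without it.

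**Figure D1:**
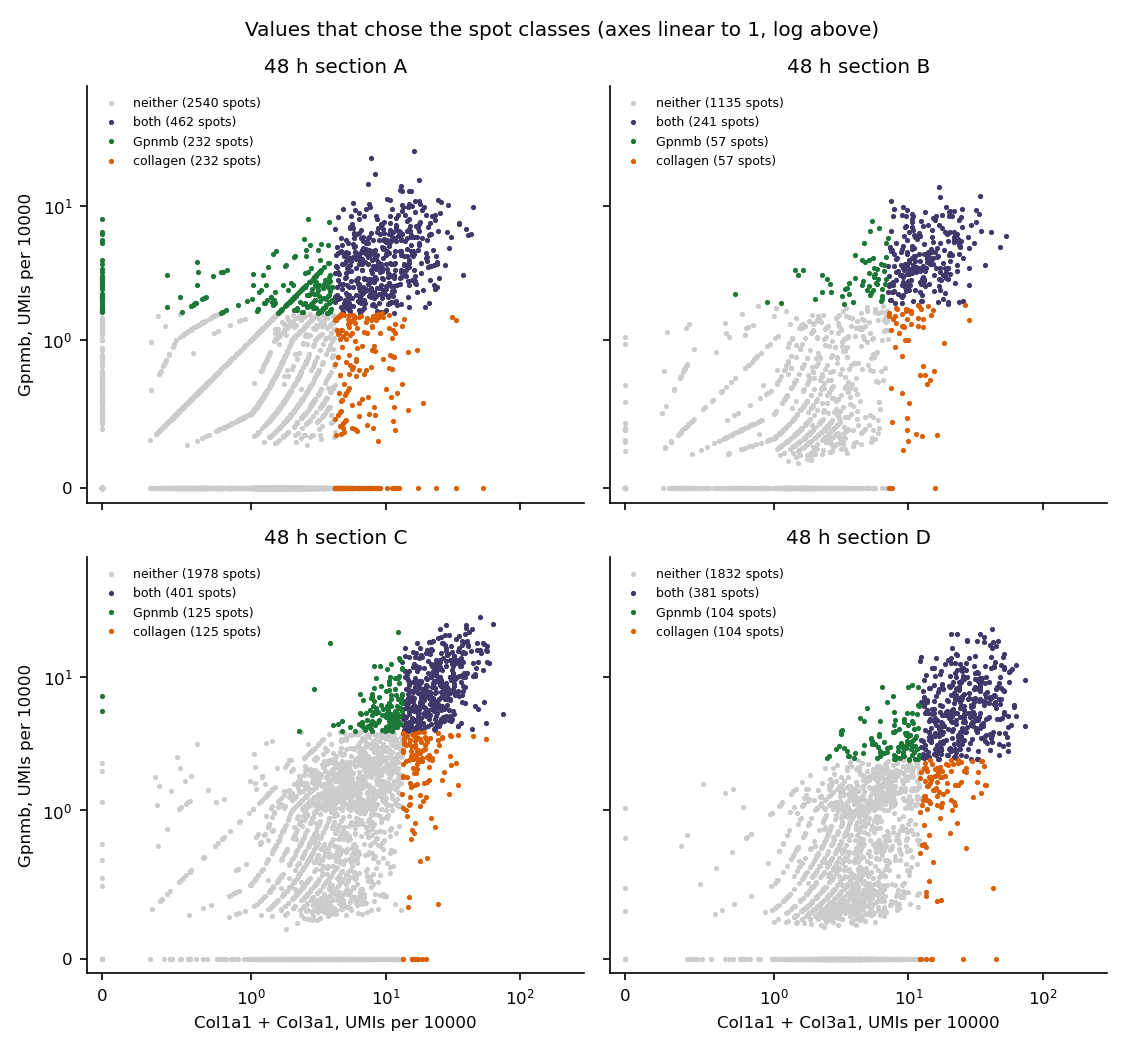
Each point is a spot of a 48 h section, placed by its Col1a1 plus Col3a1 (x axis) and Gpnmb (y axis) UMIs per 10000, on axes that are linear up to 1 and logarithmic above, and coloured by class. The collagen and Gpnmb spots (232, 57, 125 and 104 of each in sections A to D) are narrow bands beside a larger both-high cloud, and the diagonal streaks are spots with a few whole UMIs.

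Summed over the spots of a class, the genes used to choose them followed the rule, and both classes lay between the both-high and the neither spots. Col1a1 stood at 224, 349, 709 and 704 CPM (UMIs per 1000000 of the scaled class sum) in the collagen spots of sections A to D and at 66.9, 129, 336 and 273 CPM in the Gpnmb spots. Both-high spots had 350 to 975 CPM and neither spots 48.5 to 193 CPM. Gpnmb stood at 257, 302, 586 and 373 CPM in Gpnmb spots, at 68.2, 101, 238 and 144 CPM in collagen spots and at 404 to 795 CPM in both-high spots. In section A the Gpnmb spots were close to the neither spots in collagen, with 66.9 against 48.5 CPM of Col1a1 and 158 against 125 CPM of Col3a1. In each section Gpnmb spots stood above neither spots in both collagens, and collagen spots stood above them in Gpnmb.

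Both classes mostly sat beside the both-high spots, and each had some neighbours of the other class. Of the collagen spots, 72.0%, 87.7%, 74.4% and 82.7% in sections A to D touched a both-high spot on the hexagonal grid, as did 62.9%, 87.7%, 77.6% and 76.9% of the Gpnmb spots. Of the neither spots, at most 45.1% did in any section. Among the grid neighbours of collagen spots, 12.7%, 6.12%, 12.9% and 9.12% were collagen spots, against shares of 6.69%, 3.83%, 4.75% and 4.30% among all passing spots. Gpnmb spots, with the same shares of all passing spots, were 8.12%, 6.73%, 6.33% and 4.05% of the neighbours of collagen spots. That was above their share in sections A to C and below it in D. Among the neighbours of Gpnmb spots, 11.7%, 6.12%, 9.48% and 7.65% were Gpnmb spots and 8.05%, 6.73%, 6.42% and 3.99% collagen spots. In sections A, C and D each class thus had more neighbours of its own class than of the other. In section B the order was the other way by less than 1 percentage point. With 4 sections an exact sign-flip test of such a value cannot reach p under 0.05, so none was run.

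**Figure D2:**
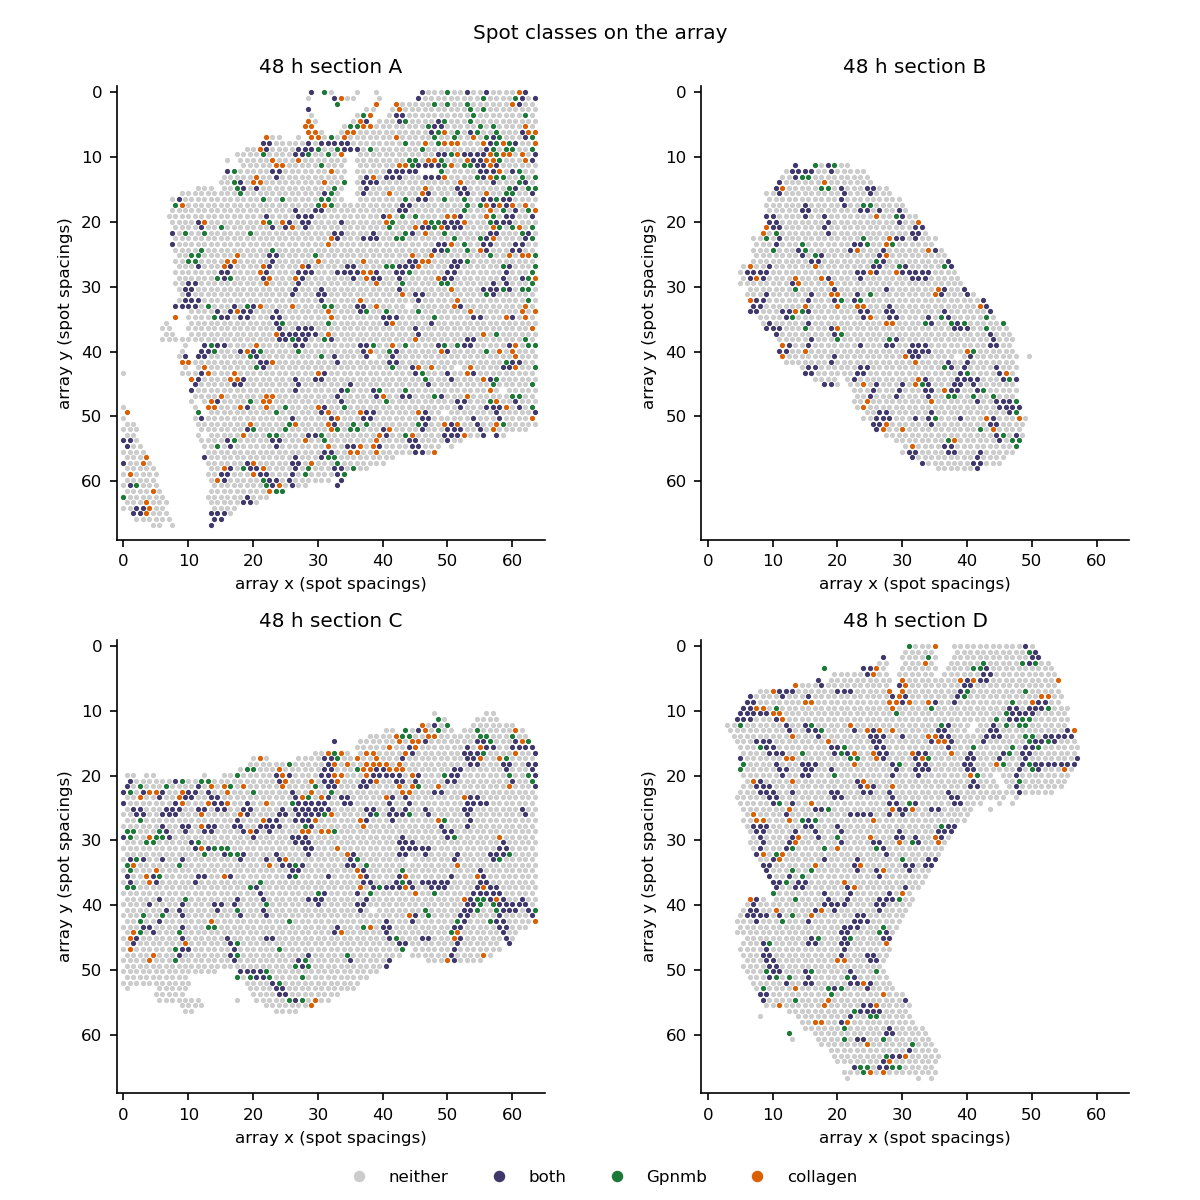
Passing spots of the 4 sections at 48 h drawn at their array positions, in units of the spacing between spots, coloured by class. Collagen and Gpnmb spots lie along and between the chains of both-high spots, and section C holds a patch of adjoining collagen spots near its upper edge.

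Depth was somewhat higher in collagen spots. The median collagen spot held 16998, 27957, 21610 and 23271 UMIs in sections A to D and the median Gpnmb spot 14857, 27218, 20392 and 21814, so collagen spots were the deeper in 4 of 4 sections. Class sums held 1571303 to 3857540 UMIs. In section C the median mitochondrial share was 4.13% in collagen spots and 1.69% in Gpnmb spots, whereas in section A it was 2.25% and 2.74%, and in B and D the classes differed by at most 0.1 percentage points. For depth, a run with spots thinned to a fixed number of UMIs is given further on. A run with spots ranked by UMIs is given too, but it does not correct for depth. The part of the mitochondrial share in the results was not tested beyond the values without section C.

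To find which other transcripts separated the classes, UMIs were summed per section and class and 10523 genes were tested by edgeR's quasi-likelihood test with the section as a block. At a Benjamini-Hochberg adjusted p under 0.05, 78 genes were higher in collagen spots (0.741% of those tested) and 3 were higher in Gpnmb spots (0.0285%). The 78 differed by 0.28 to 1.92 on the log2 scale with a median of 0.69, and 77 of them were higher in collagen spots in 4 of 4 sections. Over all genes tested the median difference was -0.01, and 8.12% were higher in collagen spots in every section and 7.74% lower in every section. Of the 78, 33 belonged to 5 lists of matrix and contractile genes. Without the section as a block no gene was called in either direction, and 205 had an unadjusted p under 0.05 against 887 with it. DESeq2's Wald test called 29 genes higher in collagen spots and 0 higher in Gpnmb spots. The number higher in collagen spots was 47 without section A and 51 without section D, and the number higher in Gpnmb spots was 7 without A, 1 without B and 135 without C.

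In sums over mixed spots, more cells of a type and more RNA per cell cannot be told apart, and this holds for each group of genes that follows. Both-high spots held the highest sums of the lists of other collagens, collagen processing and basement membrane in 4 of 4 sections. They did so in 3 for the contractile list and in 0 for the elastic-fibre and matricellular list. The differences below therefore set collagen spots against Gpnmb spots only. Most collagens other than those used for ranking were higher in collagen spots. The spots were chosen by Col1a1 and Col3a1, so a rise of other genes of collagen-making cells was likely beforehand. The p-values of such genes, also with spots ranked by Col1a2, are not independent support for the classes. A list of other collagens, labelled fibril-associated in the figures, holds fibrillar (I and V), microfibrillar (VI) and fibril-associated chains. Of its 10 tested genes, 7 were higher in collagen spots and 0 in Gpnmb spots, with a median of 0.74. Col1a2, the partner chain of Col1a1 in type I collagen, had 293, 450.1, 829.5 and 884 CPM in the collagen spots of sections A to D and 141, 243, 533 and 440 CPM in the Gpnmb spots. It was higher in collagen than in Gpnmb spots in every section, although the classes overlapped across sections, and differed by 0.89 (SE 0.07, edgeR adjusted p = 5.32e-07). In both-high spots Col1a2 was higher still, at 545 to 1279 CPM. The microfibrillar collagen VI chains followed. Col6a2 (chr10:76595762-76623630, minus strand) had 41.0, 38.9, 120.5 and 68.2 CPM against 18.0, 15.6, 57.1 and 29.6 CPM, a difference of 1.16 (SE 0.10, edgeR adjusted p = 1.34e-06). Col6a3 differed by 0.84 (SE 0.08), and Col5a1 and Col5a2, which set fibril diameter, by 0.81 (SE 0.09) and 0.73 (SE 0.09). Col6a1 and Col14a1 were the other 2 called. With spots ranked by Col1a2 and by Cd68 instead, 7 of 10 were higher in collagen spots, the 6 called here other than Col1a2 and, in addition, Col16a1.

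Enzymes and chaperones that process collagen were also higher in collagen spots, 7 of 13 tested with a median of 0.58. Serpinh1, the collagen chaperone HSP47, had 127.5, 169, 276 and 341 CPM in collagen spots and 81.6, 121, 184 and 207 CPM in Gpnmb spots (difference 0.62, SE 0.07, edgeR adjusted p = 3.06e-05). Lox, which crosslinks collagen and elastin, was called from lower counts. It had 13.8, 25.4, 30.4 and 30.4 CPM against 8.25, 6.61, 21.8 and 12 CPM, a difference of 0.97 (SE 0.18). Fkbp10, a procollagen prolyl isomerase, differed by 0.91 (SE 0.15) and Pcolce, an enhancer of procollagen cleavage, by 0.58 (SE 0.10). Loxl1, Loxl2 and Adamts2 completed the 7. DESeq2 called 2 of the 13, and 4 of 12 were called with spots ranked by UMIs. Among the 4 most abundant members of the list, Bmp1 and Plod1 did not pass the test, with differences of 0.02 and 0.04.

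Elastic-fibre and matricellular genes contributed 10 of 17 tested, with a median of 0.65. The count was 6 of 16 without section A, 4 of 17 with DESeq2 and 5 of 16 with spots ranked by UMIs. Eln, which encodes tropoelastin, had 10.1, 14.0, 25.4 and 14.6 CPM in collagen spots and 3.97, 3.01, 12.7 and 11.1 CPM in Gpnmb spots (difference 1.03, SE 0.22, edgeR adjusted p = 0.017). Ltbp2, an elastic-fibre protein counted in the growth factor list and not among these 10, differed by 0.96 (SE 0.16). The small proteoglycan Bgn had 269, 279, 490 and 451 CPM against 190, 189, 303 and 294 CPM, and Dcn, a second one, differed by 0.43 (SE 0.09). Differences in the list went down to -0.21. Fn1, which encodes fibronectin and is also expressed by hepatocytes, was the most abundant member of the list and was not among the 10. It had 997, 1210, 1087 and 1257 CPM in collagen spots and 1098, 1271, 1140 and 1328 CPM in Gpnmb spots, a difference of -0.09 (SE 0.06) that did not pass the test. Mfap4, a microfibril-associated gene under 10 CPM, had the largest difference of the called genes, 1.92 (SE 0.34, edgeR adjusted p = 0.00389), from 76 UMIs in collagen and 19 in Gpnmb spots over the 4 sections, and was named after its value was seen.

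Basement-membrane genes gave 3 of 11. Col4a1 had 199, 213, 333 and 266 CPM in collagen spots against 119, 149, 229 and 166 CPM in Gpnmb spots and differed by 0.62 (SE 0.07, edgeR adjusted p = 2.27e-05). Col4a2, transcribed from the same locus in the opposite direction, differed by 0.61 (SE 0.07), and Sparc, a collagen-binding glycoprotein, by 0.62 (SE 0.06). Col18a1, the second most abundant member, had a difference of -0.15 (SE 0.07) and was not called.

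The contractile genes of myofibroblasts and smooth muscle were the list with the largest median, 0.80, and 6 of 10 tested were higher in collagen spots. Acta2 (chr19:34241090-34255590, minus strand), smooth muscle actin, had 132, 136, 148 and 182 CPM in the collagen spots of sections A to D and 48.6, 73.3, 99.6 and 82.3 CPM in the Gpnmb spots. Here the lowest collagen value lay above the highest Gpnmb value, and the difference was 1.01 (SE 0.10, edgeR adjusted p = 8.1e-06). In both-high spots Acta2 was higher still, at 167 to 237 CPM. Myl9, a regulatory myosin light chain, had 95.1, 48.1, 32.3 and 61.7 CPM against 25.4, 26.5, 23.3 and 31.7 CPM, also without overlap (difference 1.18, SE 0.18). Tagln, an actin-binding protein, had 119, 82.7, 124 and 105 CPM against 45.2, 66.7, 74.9 and 50.6 CPM, with a difference of 0.91 (SE 0.12). Tpm2, a tropomyosin, differed by 1.07 (SE 0.16). The count rested partly on how spots were ranked. With the top 10% of spots Acta2, Myl9, Tagln and Tpm2 kept differences of 0.81 to 1.20 and none passed the test, 3 of the 10 being called. With spots ranked by Col1a2 and Cd68 the list's median was 0.36 and 2 of 9 were called. Without spots that held UMIs of bile duct keratins or Epcam the median was 0.59 and 4 of 9 were called. In both settings the list of other collagens had the larger median (0.70 and 0.74). DESeq2 called 3 of the 10 and ranking by UMIs 1.

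**Figure D3:**
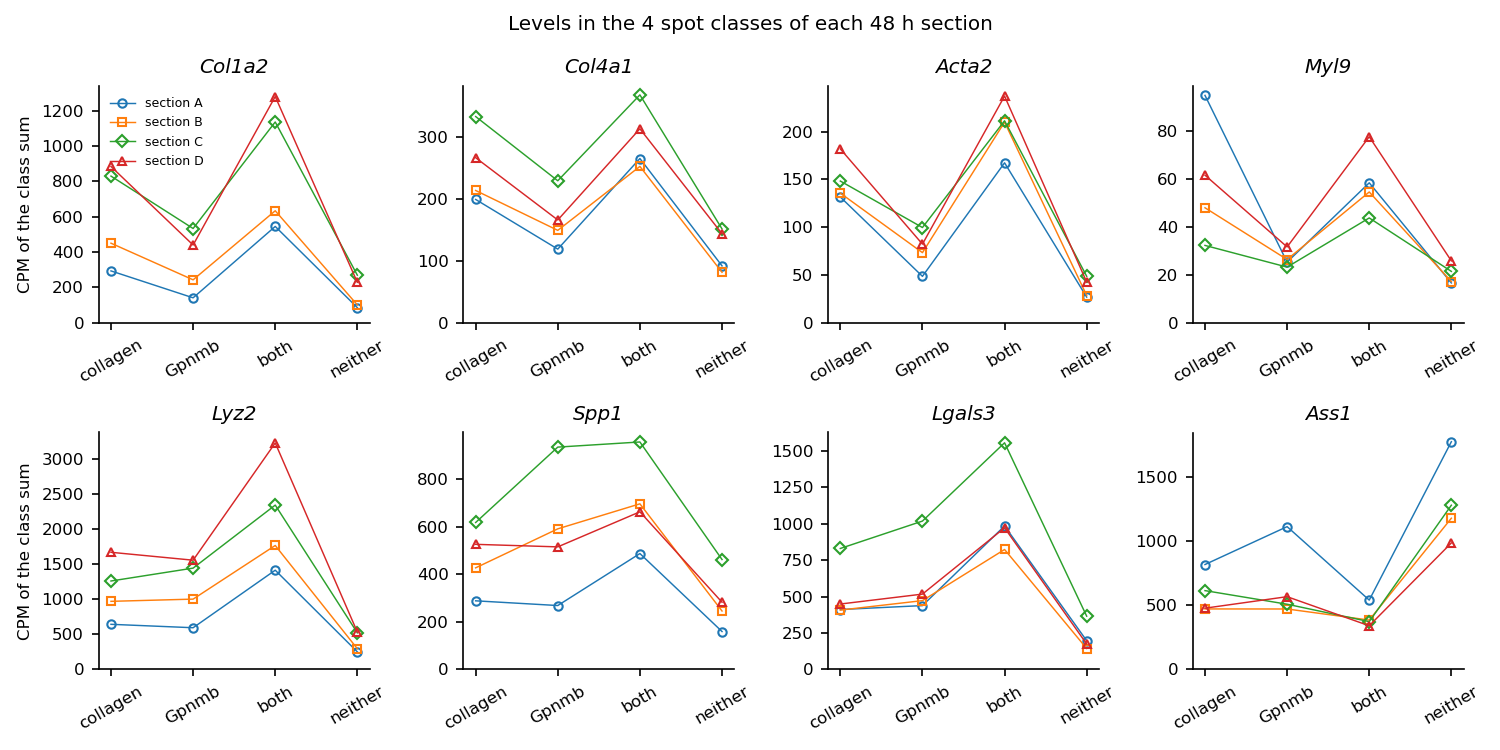
CPM of 8 genes (y axis, from 0) in the summed spots of each class (x axis), with a line for each 48 h section. Col1a2, Col4a1, Acta2 and Myl9 are higher in collagen than in Gpnmb spots in 4 of 4 sections. Lyz2 and Spp1 have no common direction between the 2 classes, and Lgals3 is lower in collagen spots in each section without passing the test. Every gene but Ass1 is lowest in neither spots.

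Promoter sequence was examined because contractile genes share a short element, the CArG box, that binds the serum response factor. It was searched on both strands of 300 bases around a transcript start (250 before to 50 after) in RefSeq promoters of GRCm38.p6. A promoter was found for 57 of the 78 genes higher in collagen spots, and 3 of them (5.26%) held a CArG box, against 1.81% of the 27025 genes with a promoter and 1.54% of the tested genes. These 3 were named after their values were seen. They are shown with the box in capitals and 25 bases on each side, on the plus strand, which is the coding strand of each. All lie before the transcript start of the promoter that was searched. For Fhl1 that start is inside the gene (chrX:56731787-56793346), so its window does not lie before the whole gene.
Myl9 (chr2:156775278-156775337): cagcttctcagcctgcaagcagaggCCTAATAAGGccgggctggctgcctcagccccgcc
Cnn2 (chr10:79988519-79988578): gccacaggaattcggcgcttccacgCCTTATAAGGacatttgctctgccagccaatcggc
Fhl1 (chrX:56779556-56779615): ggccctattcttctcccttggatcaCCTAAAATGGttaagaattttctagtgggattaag
Cnn2, which encodes a calponin, differed by 0.69 (SE 0.13) and Fhl1, a LIM protein of muscle, by 0.84 (SE 0.18). Of the 10 tested genes of the contractile list 8 had a promoter, and only 2 of these (25%), Cnn2 and Myl9, held a CArG box. The E-box CACGTG was in 1 of the 57 promoters (1.75%), in 8.09% of all promoters and in 12.04% of those of tested genes. The AP-1 site TGACTCA was in 3 (5.26%), against 5.95% of all promoters and 4.74% of those of tested genes. Of the 8 promoters of the contractile list, 2 (25%) held TGACTCA, the same share as for the CArG box but in other genes. Of the 3 genes higher in Gpnmb spots 2 had a promoter, and none held any of these motifs. A match is a run of letters in this window and was not tested as a binding site.

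Mesenchymal cell markers outside the matrix gave a mixed count. Pdgfrb encodes the receptor through which stellate cells answer platelet-derived growth factor. It was the only 1 of 13 tested genes that passed in the list labelled quiescent stellate cell, and does not by itself show that state. It had 30.4, 42.7, 67.4 and 37.8 CPM in collagen spots against 15.9, 15.0, 35.6 and 22.7 CPM in Gpnmb spots, a difference of 0.97 (SE 0.13, edgeR adjusted p = 0.000112). The list's median was 0.34. Itga8, an integrin chain of stellate cells and pericytes, differed by 0.95 (SE 0.19), and Aebp1, a collagen-binding secreted protein, by 1.02 (SE 0.19). Of the bile duct markers 2 were tested and 0 called, and the 8 of them summed to 17.1 to 49.0 CPM in collagen spots and 21.4 to 30.9 CPM in Gpnmb spots. None of the 5 tested portal fibroblast markers was called (median 0.59), and the summed list stood at 31.9 to 89.3 CPM in collagen spots and 18.9 to 59.3 CPM in Gpnmb spots. Growth factor genes gave 3 of 13. They were Ltbp1, which stores TGF-beta in the matrix, its family member Ltbp2, described above as an elastic-fibre protein, and the receptor Pdgfra. Without section A, without section D or with DESeq2, 1 of the list was called. Among matrix proteases and their inhibitors, 2 of 12 were called, both inhibitors. Timp1 differed by 0.60 (SE 0.11) and Timp2 by 0.60 (SE 0.10), and Timp1 was not called without section A or without section D.

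Some endothelial genes were higher in collagen spots as well. Pecam1, the adhesion molecule CD31, had 30.7, 28.6, 40.8 and 33.3 CPM in collagen spots and 16.5, 13.8, 20.7 and 24.9 CPM in Gpnmb spots, without overlap (difference 0.81, SE 0.14, edgeR adjusted p = 0.00213). Plvap, a component of the endothelial diaphragm, differed by 0.35 (SE 0.08). These were 2 of 7 tested genes of vein and general endothelium, and 0 of 10 sinusoidal genes were called (median 0.19). Pecam1 was not called with spots ranked by Col1a2 and Cd68, where its difference was 0.10. With that ranking, with ranking by UMIs and with DESeq2, 0 genes of the vein and general list were called, and Plvap was also not called without section A or without section D.

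**Figure D4:**
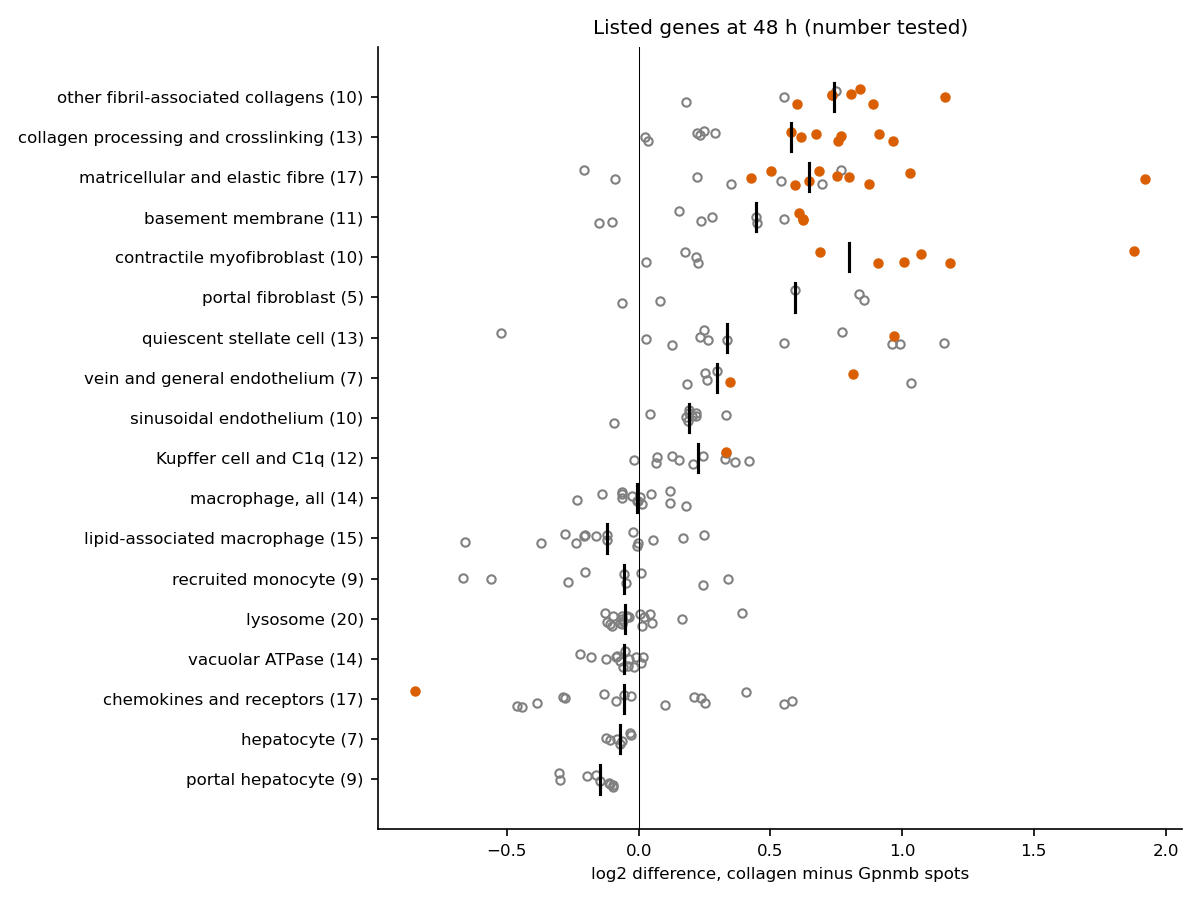
Log2 difference, collagen minus Gpnmb spots (x axis), of each tested gene of 18 lists (y axis, with the number tested), filled where called at an edgeR adjusted p under 0.05, with a bar at each list's median. Filled points lie to the right for the matrix and contractile lists (medians 0.45 to 0.80), whereas the macrophage, lysosome and hepatocyte lists lie around 0 and the only filled point on the left is Ccl5.

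The spots chosen by Gpnmb were not set apart by macrophage genes under this rule. Of 14 general macrophage markers 0 were called and the median difference was 0.00, and of 15 genes of lipid-associated macrophages 0 were called with a median of -0.12. The summed general markers had 2017, 2645, 3658 and 3868 CPM in the collagen spots of sections A to D and 1797, 2715, 4501 and 3536 CPM in the Gpnmb spots. Gpnmb spots were the higher in 2 of 4 sections, B and C. Both-high spots had 4072 to 6761 CPM and neither spots 937 to 1849 CPM. The label macrophage-dominated is therefore not borne out by these lists, and the spots are named here by the gene that chose them.

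Single macrophage genes showed the same overlap. Lyz2, the lysozyme of macrophages and the most abundant marker, had 641, 969, 1259 and 1668 CPM in collagen spots and 592, 1000, 1443 and 1556 CPM in Gpnmb spots (difference -0.01, SE 0.07). Spp1, osteopontin, which scar-associated macrophages secrete, had 288, 427, 618 and 526 CPM against 268, 591, 935 and 515 CPM. It was higher in the Gpnmb spots of sections B and C and about level in A and D, with a difference of -0.24 (SE 0.10, edgeR adjusted p = 0.499). Lgals3, a galectin of phagocytes, had 411, 407, 831 and 449 CPM against 438, 472, 1019 and 517 CPM, lower in collagen spots in 4 of 4 sections, and did not pass the test (-0.20, SE 0.06, edgeR adjusted p = 0.256). Fabp5, a fatty acid carrier, had a difference of -0.28 (SE 0.08) and the cysteine protease Ctss -0.14 (SE 0.07), neither called.

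Of 12 Kupffer cell and complement genes, 1 was higher in collagen spots, C1qa, and the list's median was 0.22. Without section C there were 5 (C1qa, C1qb, C1qc, Vsig4 and Clec4f), and without A, B or D, with DESeq2 or with spots ranked by Col1a2 and Cd68 (median -0.06) there were 0. C1qa, a chain of the complement component C1q, had 177, 213, 309 and 383 CPM in collagen spots and 134, 165, 289 and 276 CPM in Gpnmb spots (difference 0.33, SE 0.07, edgeR adjusted p = 0.026). The other C1q chains, C1qb and C1qc, had differences of 0.15 (SE 0.08) and 0.24 (SE 0.08) and were not called. Lysosomal genes gave 0 of 20 (median -0.05), with Ctsb, cathepsin B, at -0.07 (SE 0.07), and 0 of 14 proton pump subunits were called (median -0.06). Recruited monocyte markers gave 0 of 9 (median -0.05), neutrophil markers 0 of 5 and MHC class II genes 0 of 6. None of the T and NK cell markers passed the filter on low counts, and the 10 of them summed to 7.03 to 17.1 CPM over both classes.

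The 3 genes higher in Gpnmb spots were Ccl5, Rtp3 and Pecr. Ccl5 (chr11:83525778-83530518, minus strand), a chemokine of T cells, NK cells and macrophages, had 25.9, 9.19, 10.8 and 9.34 CPM in collagen spots and 38.8, 15.6, 33.1 and 13.3 CPM in Gpnmb spots. It was lower in collagen spots in 4 of 4 sections, with a difference of -0.85 (SE 0.17, edgeR adjusted p = 0.0115) resting on 171 and 275 UMIs. Rtp3, a liver-enriched gene of the receptor transporter family, had 33.0, 37.3, 17.7 and 28.8 CPM against 44.3, 61.3, 31.6 and 38.6 CPM (-0.57, SE 0.11). Pecr, a peroxisomal trans-2-enoyl-CoA reductase of fatty acid synthesis, differed by -0.36 (SE 0.08). Rtp3 and Pecr were highest in neither spots in 4 of 4 sections, at 48.5 to 78.9 and 227 to 328 CPM, as was the hepatocyte gene Alb. In both-high spots, where Gpnmb was highest, Rtp3 and Pecr were lower than in Gpnmb spots in each section. They thus did not rise with Gpnmb across the classes. Ccl5 was lower in neither than in Gpnmb spots in each section. None of the 3 was among the genes called in Gpnmb spots at the top 10%, and the difference of Ccl5 was 0.21 at the top 30%.

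Hepatocyte transcripts were a large part of both classes. The 7 hepatocyte markers summed to 78928 to 90672 CPM in collagen spots and 69406 to 108152 CPM in Gpnmb spots, between 50689 to 69567 CPM in both-high spots and 134341 to 159459 CPM in neither spots. None of the 7 was called, with a median of -0.07, whereas 3 (Alb, Cyp2e1 and Hp) were higher in Gpnmb spots without section C. Alb, serum albumin, had a difference of -0.08 (SE 0.08). Of 9 portal hepatocyte genes 0 were called and the median was -0.15. Ass1, a urea cycle enzyme, had 818, 471, 614 and 477 CPM in collagen spots and 1114, 471, 508 and 567 CPM in Gpnmb spots, and section C went against A and D. Pck1, which makes glucose, had a difference of -0.30 (SE 0.09, edgeR adjusted p = 0.159). When section C was left out, 114 genes were higher in collagen spots and 135 in Gpnmb spots, 7 of the 9 portal hepatocyte genes being among the latter. Section C is the section whose collagen spots had the raised mitochondrial share. Its part in this was not tested.

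The cut-off at which a spot counted as high changed which genes were higher in Gpnmb spots, far more than those higher in collagen spots. At the top 10% of spots, 182 genes were higher in collagen spots (1.72%) and 88 in Gpnmb spots (0.831%). At the top 30% the numbers were 247 (2.23%) and 434 (3.93%). Of the 78 genes called at 20%, 62 were called in the same direction at 10% and 72 at 30%. On the Gpnmb side 1 gene was shared between the 88 and the 434. Each class held 144, 62, 99 and 91 spots in sections A to D at 10%, and 386, 92, 191 and 169 at 30%. A spot in the top 10% for 1 measure only can be a both-high spot at 20%. In section B each class was larger at 10% than at 20% (62 against 57 spots), so such spots did enter. The 10% classes are therefore not a purer subset of the 20% classes.

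At the top 10%, part of the macrophage genes were higher in the Gpnmb spots of that cut-off, which can be both-high at 20%. This held for 7 of the 14 general markers (median -0.23), 9 of the 15 lipid-associated macrophage genes (median -0.27) and 5 of the 20 lysosomal genes (median -0.13). Spp1 differed by -0.65 (edgeR adjusted p = 2.92e-17), Fabp5 by -0.55, Lgals3 by -0.47, Ctss by -0.28, Lyz2 by -0.26 and Ctsb by -0.24. Of the 12 Kupffer cell and complement genes 0 were higher in Gpnmb spots there (median 0.06), and C1qa was higher in collagen spots. Of 10 recruited monocyte markers, S100a4 and Chil3 were higher in Gpnmb spots and Plac8 in collagen spots. No portal hepatocyte gene was called at this cut-off. The 4 haemoglobin genes were higher in collagen spots at this cut-off, with a median of 0.51, though their near-identical copies may share reads.

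At the top 30%, portal hepatocyte genes were among the 434 genes of the Gpnmb side. There 8 of the 9 portal hepatocyte genes were higher in Gpnmb spots (median -0.38), with Pck1 at -0.50 (edgeR adjusted p = 1.11e-09), as were 2 of the 7 general hepatocyte markers, Alb and Hp. The other genes of the 434 were not assigned to a group. Of the 14 macrophage markers, 0 were higher in Gpnmb spots and 2 in collagen spots (median 0.14), and Lyz2 differed by 0.21 (edgeR adjusted p = 0.00851). Thinning every spot to 5000 UMIs before ranking gave 169 genes higher in collagen spots and 391 in Gpnmb spots, among them all 9 portal hepatocyte genes, and 5 of 14 macrophage markers higher in collagen spots. Tied values after thinning made the classes larger and unequal, with 514, 79, 165 and 143 collagen spots and 474, 261, 321 and 510 Gpnmb spots in sections A to D, so thinning and a wider cut-off cannot be told apart here. Ranking by UMIs without thinning gave 32 genes higher in collagen spots and 0 in Gpnmb spots. That ranking does not divide by depth, so deep spots can rank high in both measures. Its classes were also unequal, with 148, 53, 96 and 76 collagen spots and 468, 73, 138 and 147 Gpnmb spots in sections A to D. Genes of the list of other collagens were higher in collagen spots in 9 of 10 cases at both cut-offs and in 8 of 10 after thinning.

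**Figure D5:**
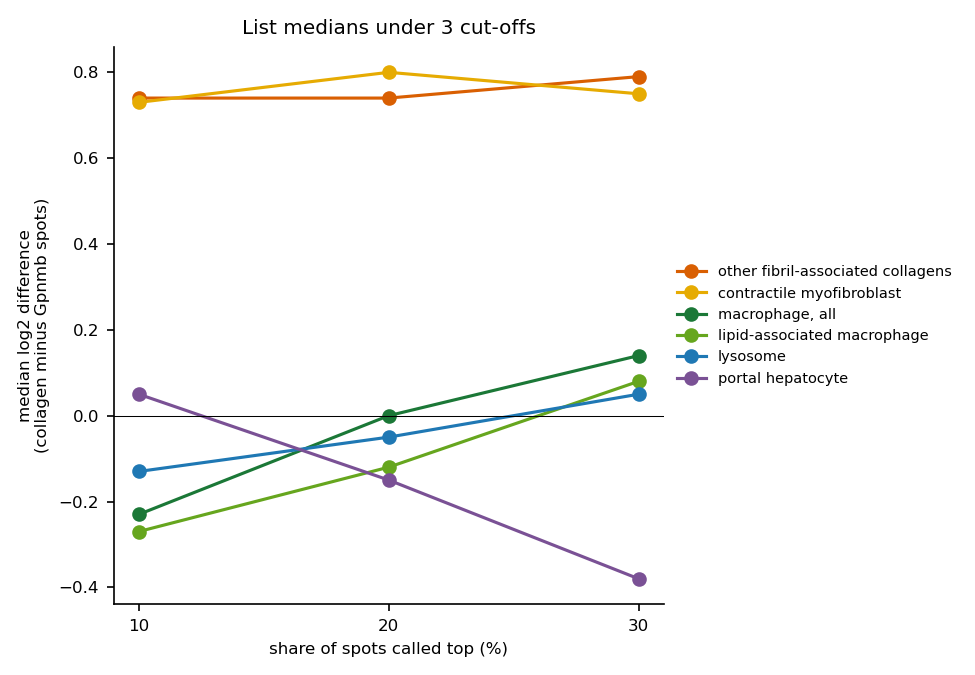
Median log2 difference, collagen minus Gpnmb spots (y axis), of 6 gene lists when the top 10%, 20% or 30% of spots (x axis) were called high. The collagen and contractile medians stay between 0.73 and 0.80, whereas the macrophage medians go from -0.23 and -0.27 to 0.14 and 0.08 and the portal hepatocyte median from 0.05 to -0.38.

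A set of 15 genes was higher in collagen spots at an adjusted p under 0.05 at 20% and under each of 17 alternatives that kept the section as a block. They were Bgn, Col4a1, Col4a2, Col5a1, Col5a2, Col6a1, Col6a2, Col6a3, Csrp1, Fbn1, Ltbp2, Lum, Rcn3, Serpinh1 and Sparc, and all but Csrp1 (a LIM protein) and Rcn3 (a chaperone of the secretory pathway) encode or process extracellular matrix. Col1a2 is missing from this set only because it ranked the spots in 1 alternative.

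To see whether the 3 ranking genes differed between spots chosen by other genes, spots of the same sections were ranked by Col1a2 and by Cd68. Cd68 encodes a lysosomal glycoprotein of macrophages. In the Col1a2 spots of sections A to D, Col1a1 had 190, 354, 693 and 738 UMIs per 1000000 and in the Cd68 spots 87.7, 187, 424 and 286, a difference of 0.97 (SE 0.09, edgeR adjusted p = 0.00105). Col3a1 had 362, 656, 1012 and 1090 against 218, 455, 682 and 602 UMIs per 1000000, a difference of 0.63 (SE 0.05, edgeR adjusted p = 2.52e-13). Both were higher in the Col1a2 spots in 4 of 4 sections. Col1a2 encodes the partner chain of Col1a1 and the same sections were used, so a rise of these collagens was likely beforehand. It is not independent support for the first ranking. Gpnmb had 158, 222, 377 and 294 UMIs per 1000000 in the Col1a2 spots and 150, 245, 434 and 266 in the Cd68 spots, and the difference of -0.08 (SE 0.06, edgeR adjusted p = 0.662) did not pass the test. In this ranking 79 genes were higher in Col1a2 spots (0.729%) and 17 in Cd68 spots (0.157%).

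The same rule was applied to the 2 sections at 36 h, where it had far fewer molecules to work with. It gave 232 and 241 spots of each class, and the median Gpnmb spot held 1 and 2 Gpnmb UMIs. Of the spots in the top collagen share, 41.1% and 40.8% were also in the top Gpnmb share, below the 66.6% to 80.9% at 48 h, and r across spots was 0.39 and 0.37. In 1 fit over both times, 12 genes were higher in collagen spots at 36 h (0.103%) and 0 in Gpnmb spots. Col6a2, Col6a3 and Fbln2 were the 3 of these also called at 48 h. Col6a3 differed by 0.89 (SE 0.15) at 36 h and by 0.84 (SE 0.08) at 48 h. Of the 78 genes called at 48 h, 74 had a difference above 0 at 36 h, against 48.4% of all genes tested, and their median was 0.38 at 36 h and 0.69 at 48 h. The 36 h spots were ranked by the same genes, so a shared direction was likely beforehand and is not independent support.

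Some genes called at 36 h stood mainly in 1 section. Mgp, an inhibitor of matrix calcification, had 3.51 and 43.0 CPM in the collagen spots of the 36 h sections A and B and 0.915 and 9.22 CPM in the Gpnmb spots. Msln and Upk3b, markers of the mesothelial cells that cover the liver, had 30.8 and 28.1 CPM in the collagen spots of section B and 0.639 and 1.92 CPM in those of section A. These 3 genes were named after their values were seen. The mesothelial list summed to 0.540 to 51.6 CPM in the collagen spots at 48 h and to 2.14 to 35.6 CPM in the Gpnmb spots, highest in section C, and none of its 6 genes passed the filter there.

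Whether the class difference itself changed between 36 h and 48 h was tested as an interaction. No gene was called of 11609 (0%) by edgeR's quasi-likelihood test, 426 had an unadjusted p under 0.05, and the smallest adjusted p was 0.9996. Acta2 had a difference of 0.29 (SE 0.17) at 36 h and 1.01 (SE 0.11) at 48 h. Col1a2 had 0.62 (SE 0.15) and 0.89 (SE 0.09). These pairs of values do not show a change, since the test of the change did not pass. Each time point comes from 1 mouse by the study's account, so a difference between times could not be told apart from one between mice.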

How the data were processed

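Spatial gene expression (Visium, 10 µm frozen sections) was analysed in the 4 sections at 48 h and, for 1 comparison, the 2 at 36 h. The deposited values were raw UMI counts per gene and spot, made by the authors with Space Ranger 1.0.0 on mm10 per the labels, with 31053 genes and the tissue mask in separate position files. Seurat 4.1.1 is also named by the submitters, and the files hold no values from it. Passing sections at 48 h held 43600556 to 60856876 UMIs.

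Counts were summed per section and class after removing Col1a1, Col3a1 and Gpnmb. They were scaled by TMM over the 16 sums of all 4 classes, filtered by filterByExpr and fitted with edgeR 4.0.16 (R 4.3.3; robust quasi-likelihood, two-sided, section as block). The section pairs the 2 sums because both come from the same library, and letters shared between time points pair nothing. Calls needed a Benjamini-Hochberg adjusted p under 0.05 over all genes tested, and differences are log2 values of collagen minus Gpnmb spots. CPM are per 1000000 of the scaled sum. DESeq2 1.42.0 was an alternative, and the fit was tested on simulated counts. The 34 gene lists were described by counts and medians only.

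Members and gene lists were chosen with earlier results of these data known. Genes named were, in each direction, up to 12 of the largest differences among calls with at least 10 CPM and 1 direction in 4 sections, up to 4 of the most abundant genes of a list, and members of counts of 5 or fewer. Others are said to be chosen later or complete a count. Images were not used here.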

Additional observations from a re-analysis of the deposited data

Results flagged for a closer look

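Of 71 named genes whose 4 sections at 48 h were searched for a section far from the rest, 4 had one, and chance alone gives about 1 in 20. For Fn1, the log2 ratio of collagen to Gpnmb spots (CPM plus 0.5) was -0.14 in section A and -0.07, -0.07 and -0.08 in sections B, C and D. All 4 values are small and of the same sign, and Fn1 did not pass the test. For Cyp2e1, a drug-metabolising enzyme of central hepatocytes, the ratio was 0.59 in section C and -0.24, -0.22 and -0.21 in A, B and D, and it was called higher in Gpnmb spots without section C and under no other alternative. For Loxl2 it was 0.50 in section C and 0.85 to 0.90 in the others, and for Pdgfra 0.68 in section B and 0.81 to 0.82 in the others, each of 1 sign. No difference between time points was called.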

How the results depend on the processing

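The numbers of calls depended on the section block and on how spots were ranked, although 15 of the 78 genes were called under all 17 alternatives that kept the block. Without the replicate block 0 and 0 genes were called (higher in collagen and in Gpnmb spots). The pairs were 29 and 0 with DESeq2, 128 and 13 without a filter on low counts, 32 and 0 ranked by UMIs, 169 and 391 after thinning, 182 and 88 at 10%, 247 and 434 at 30%. On the Gpnmb side the fit of all 16 sums gave 0 and ranking by Col1a2 and Cd68 gave 17. Leaving out a section gave 47 to 114 and 1 to 135 (1 without B, 7 without A, 135 without C). In the spots within 1 step of a both-high spot, an alternative chosen after seeing the data, 95 and 4 were called. For 48 h against 36 h, no filter gave 2 genes, and no replicate block gave 0, as did the other alternatives. Col1a1 in spots ranked by other genes was 1.03 with total-count scaling and lost its call, and stood at 0.85 to 1.10 with a section left out. Spots touching a both-high spot averaged 79.2% and 76.3% in the collagen and Gpnmb class and 55.9% and 53.9% at 10%, where both-high spots are fewer.

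Signs turned for these named genes, called or not. At 30% Ccl5 was 0.21, Lyz2 0.21, Ctss 0.14, Lgals3 0.09, Spp1 0.08, Ctsb 0.04, S100a4 0.25, Chil3 0.16, Cyp2e1 0.07 and Bmp1 -0.11. After thinning Ccl5 was 0.33, Lyz2 0.45, Ctss 0.36, Lgals3 0.38, Spp1 0.16, Fabp5 0.19, Ctsb 0.27, S100a4 0.41, Chil3 0.42 and Bmp1 -0.18. At 10% Pecr was 0.12, Ass1 0.06, Alb 0.02, Col18a1 0.03 and Vsig4 -0.02. Ranked by UMIs Ccl5 was 0.15, Lyz2 0.05, S100a4 0.04 and Bmp1 -0.01, and ranked by Col1a2 and Cd68 C1qb was -0.03, C1qc -0.09, Clec4f -0.09, Vsig4 -0.13, Lyz2 0.04 and S100a4 0.12. Lyz2 was 0.03 with total-count scaling, -0.05 to 0.06 with a section left out (0.01 without B, 0.06 without C), and 0 beside both-high spots or without duct spots. Ass1 was -0.26 to 0.01 with a section left out (0.01 without A), Bmp1 -0.05 to 0.05 (-0.05 without D), Plod1 -0.03 to 0.09 (-0.03 without D), S100a4 -0.08 to 0.01 (0.01 without C) and Cyp2e1 -0.23 to 0.04 (above 0 without A, B or D at 0.04, 0.04 and 0.03). Cyp2e1 was 0.01 with total-count scaling and S100a4 0.02 beside both-high spots. The cause was not tested for any of these. None of the other genes among the 71 followed turned under these alternatives. Depth limits the Gpnmb ranking most, at 3 to 11 UMIs in the median Gpnmb spot.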
